A study of Mus musculus with 18 samples.

Results

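The 38 genes described here are products of the exocrine pancreas: digestive enzymes, the proteins packed with them in secretory granules, the Reg family, and a pair of acinar transcription factors. They were chosen by name from a written list and not by a cut on their values, though with earlier results of these data known. All 38 were found among the 23951 genes of the deposited table. By role they comprised 24 digestive enzymes (6 trypsinogens, 6 chymotrypsins and elastases, 2 carboxypeptidases, 6 lipases and lipase cofactors, 3 amylases and 1 ribonuclease), 6 granule proteins, 6 Reg genes and 2 transcription factors. The question was whether these genes rose and fell together across the libraries, as RNA that travels as one mixture would, and whether the Reg genes went with the enzymes.

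RNA was sequenced from mouse cells sorted out of pancreas or pancreatic tumor, in 18 libraries of 5 groups. Normal pancreatic fibroblasts (NPF, n = 3) came from mice of genotype K-Ras+/+ with the Elas-tTA/tetO-Cre driver and the Rosa26+/EYFP reporter. Cancer-associated fibroblasts (WT_CAF, n = 5) and tumor cells (WT_tumor, n = 4) came from mice that also carried K-Ras+/LSLG12Vgeo and Trp53lox/lox, and the knockout fibroblasts (KO_CAF, n = 3) and knockout tumor cells (KO_tumor, n = 3) added Saa3-/-. All 5 groups therefore share the driver and the reporter, and all groups but NPF share the oncogenic K-Ras allele and the floxed Trp53. The elastase promoter of the driver is active in acinar cells, the cells that make the genes described here, so Cre acts in the acinar lineage and in tumor cells that descend from it. No source used here gives the ages, the sort markers or whether animals were pooled.

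Acinar cells make up most of the pancreas and devote most of their messenger RNA to a small set of secreted enzymes, stored as inactive precursors in zymogen granules and carried to the gut in pancreatic juice. This RNA is so abundant that, when the tissue is broken up for sorting, some of it can enter libraries of other pancreatic cells. Reg genes encode small secreted lectins: Reg1 and Reg2 are acinar products known to rise in pancreatitis, and Reg3b and Reg3g are antibacterial lectins of the gut that injured pancreas also makes, downstream of STAT3 signalling.

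FPKM, the unit of all levels below, is fragments scaled to the length of the transcript and to the mapped fragments of the library, so levels can be set side by side between genes. FPKM summed to between 396646 and 919859 per library, and 10657 to 11670 genes per library reached 1 FPKM. How many fragments each library held is unknown. Saa3, the deleted gene, stood between 0 and 1.85 FPKM in the knockout libraries, against 7.24 to 4278 in WT_CAF and 2.75 to 106 in WT_tumor. Some libraries stood apart from their group by markers of their cell type. The library labelled WT_CAF 1 had a mean log2(FPKM + 1) of 4.52 over 12 fibroblast genes, against 7.24 to 8.05 in the other WT_CAF libraries, with the receptor Pdgfra at 9.80 FPKM against 81.0 or more. Its 12 ductal and epithelial genes were mixed, with a mean of 3.96 against 2.22 to 4.02: Krt19, a keratin, was the highest of the group at 119 FPKM and Epcam, an adhesion molecule, the lowest at 0.220. WT_tumor 4 had Epcam at 2.60 FPKM against 129 to 549 in WT_tumor 1 to 3. Its Cdh1 was 46.5 FPKM against 86.8 to 174, and its Krt19 was 438 against 485 to 1040. The mean over the 12 ductal and epithelial genes was 5.84 in WT_tumor 4, against 7.19 to 8.39 in WT_tumor 1 to 3. WT_tumor 3 had a mean of 4.16 over the 12 fibroblast genes, against 1.05 to 1.78 in the other WT_tumor libraries. The tests are also given without WT_CAF 1 and without WT_tumor 4, and the fibroblast correlations without WT_CAF 1.

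Together the 38 genes made up 13.8% of all FPKM in NPF 3, 11.96% in WT_tumor 1, 9.03% in KO_tumor 3 and 6.28% in KO_tumor 2. Their share was 0.00358% in KO_CAF 1, 0.00530% in KO_CAF 2, 0.00763% in WT_tumor 4 and 0.00955% in WT_CAF 1. High and low libraries occurred within one group: the share was 0.186%, 2.38% and 13.8% in NPF 1 to 3, and 11.96%, 3.89%, 1.65% and 0.00763% in WT_tumor 1 to 4. In the tumor fibroblasts the highest share was 0.512%, in WT_CAF 5, and the highest in KO_CAF was 0.139%, in KO_CAF 3. The number of the 38 genes at 1 FPKM or more ran from 3 in KO_CAF 1 to 36 in NPF 3, WT_tumor 1 and KO_tumor 3. In such sorted bulk samples, fewer cells of a type and less RNA per cell cannot be told apart.

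**Figure D1:**
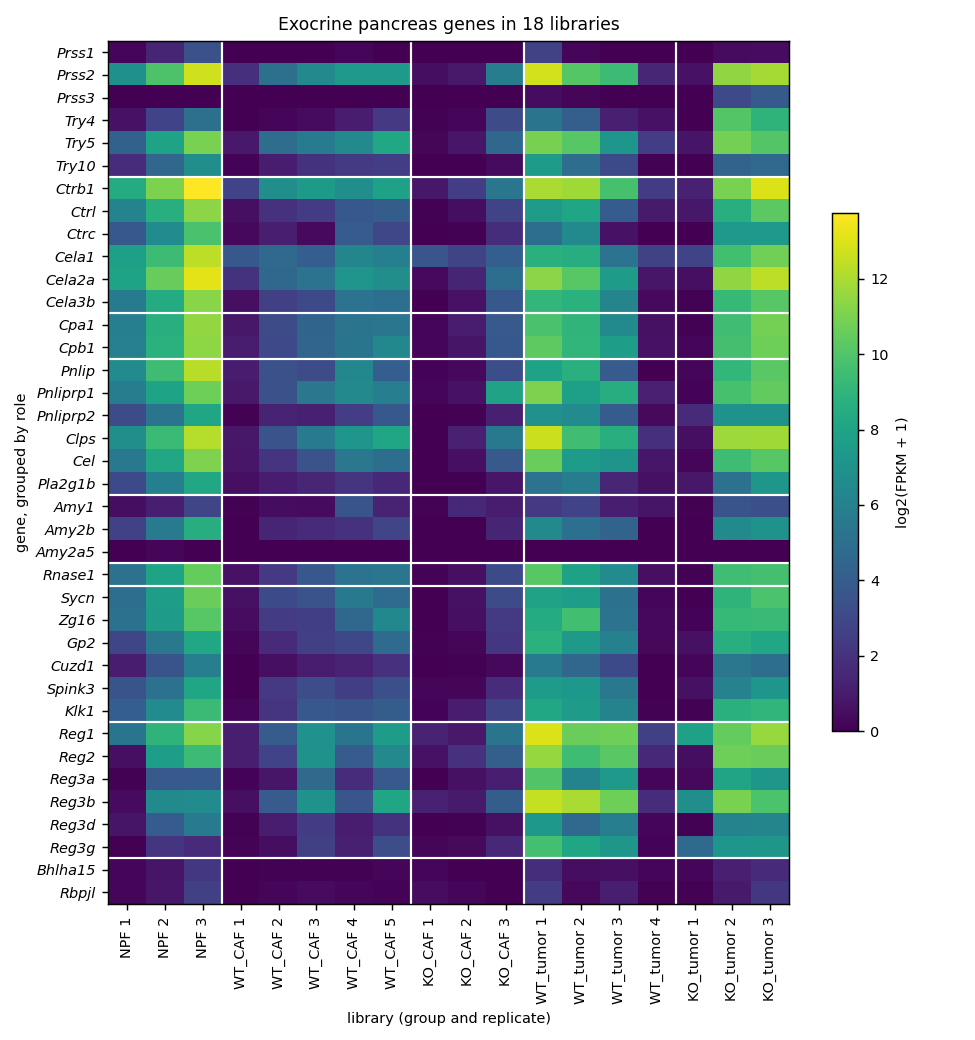
Level of each of the 38 genes (rows, grouped by role) in each of the 18 libraries (columns, grouped by sample group), as log2(FPKM + 1) on the colour scale. Enzyme and granule rows rise and fall together, highest in NPF 3, WT_tumor 1, KO_tumor 2 and KO_tumor 3 and lowest in KO_CAF 1, KO_tumor 1, WT_tumor 4 and WT_CAF 1, while Reg1, Reg3b and Reg3g stay high in KO_tumor 1.

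Among the trypsinogens, precursors of the protease that activates the others, Prss2 was the most abundant in NPF. Prss2 stood at 119.5, 941 and 6718 FPKM in NPF 1 to 3, at 2.68, 32.5, 88.7, 168 and 174 in WT_CAF 1 to 5, and at 0.409, 0.949 and 56.02 in KO_CAF 1 to 3. In WT_tumor 1 to 4 it was 7085, 1095, 669 and 1.80 FPKM, and in KO_tumor 1 to 3 it was 0.617, 2826 and 3784. NPF 1 was the lowest of its group yet above 3 of 5 WT_CAF libraries, and the tumor groups spanned nearly the whole range, so the groups overlapped.

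The 6 trypsinogens are near copies of each other, with coding sequences identical at 88.7% to 97.4% of positions, and how fragments were shared out between them is given in no source used here, so values of single trypsinogens are uncertain. Try4 stood at 1067 and 489.9 FPKM in KO_tumor 2 and 3 and at no more than 37.5 FPKM in any other library, while Try5, its nearest copy (97.4% identity), was 1829 and 1062 FPKM in the same libraries and 1962 in WT_tumor 1. Prss3 reached 7.10 and 14.03 FPKM in KO_tumor 2 and 3 and 0.364 at most elsewhere. These levels put both genes higher in KO_tumor 2 and 3 than in the libraries with the most Prss2 outside that group, NPF 3 and WT_tumor 1. Prss1 did not exceed 9.52 FPKM and Try10 did not exceed 185. Prss3 and the amylase Amy2a5, which was 0.149 FPKM in NPF 2 and 0 elsewhere, were the 2 members that did not reach 1 FPKM in 3 libraries and were not tested.

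Ctrb1, a chymotrypsinogen that cuts proteins beside aromatic residues, was the most abundant enzyme of NPF. It stood at 347, 2088 and 13616 FPKM in NPF 1 to 3, at 5.89, 109, 177, 109.9 and 228 in WT_CAF 1 to 5 and at 0.852, 4.64 and 41.4 in KO_CAF 1 to 3. The tumor cells had 4021, 3529.6, 854 and 4.53 FPKM in WT_tumor 1 to 4 and 1.40, 1990.2 and 8117 in KO_tumor 1 to 3. All NPF libraries lay above all fibroblast libraries from tumors, and each tumor group held libraries above NPF 1 and 1 library below 5.89 FPKM, the level in WT_CAF 1. Of the elastases, which cut beside small residues, Cela2a ran from 0.288 FPKM in KO_CAF 1 to 9382 in NPF 3. Cela1 did not fall below 5.47 FPKM in any library. Ctrc, which lies across from an antisense gene and cannot be separated from it without strand, was 868 FPKM at most and 0 in KO_CAF 1, WT_tumor 4 and KO_tumor 1.

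Cpa1 and Cpb1 are the carboxypeptidase precursors, which trim residues from the end of a peptide. Cpa1 stood at 59.5, 396 and 2951 FPKM in NPF 1 to 3, at 0.822, 8.26, 20.2, 37.99 and 40.7 in WT_CAF 1 to 5, and at 0.148, 1.11 and 13.5 in KO_CAF 1 to 3. In WT_tumor 1 to 4 it was 871, 497, 90.8 and 0.512 FPKM, and in KO_tumor 1 to 3 it was 0.0770, 735 and 1875. As with Ctrb1, every NPF library was above every WT_CAF and KO_CAF library, and WT_tumor 4 and KO_tumor 1 stood below 1 FPKM, as WT_CAF 1 and KO_CAF 1 did. Cpb1 was close to Cpa1 in each library, at 0.637 to 2.23 times its level in the 14 libraries with at least 1 FPKM of Cpa1.

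Pnlip, the main triglyceride lipase of pancreatic juice, stood at 99.3, 695 and 4939 FPKM in NPF 1 to 3, at 1.11, 9.71, 8.19, 81.4 and 16.5 in WT_CAF 1 to 5, and at 0.110, 0.240 and 8.97 in KO_CAF 1 to 3. Levels in WT_tumor 1 to 4 were 250.5, 421, 14.6 and 0.0348 FPKM, and in KO_tumor 1 to 3 it was 0.196, 542 and 1171. NPF and the tumor fibroblasts again did not overlap, but here WT_tumor 1 was below NPF 2, unlike its order in Prss2 and Ctrb1. Clps, the colipase that anchors Pnlip to fat droplets, had the other order, at 6241 FPKM in WT_tumor 1 and 4719 in NPF 3. Pnliprp1, a related protein with little lipase activity, was 241 FPKM in KO_CAF 3, where Cpa1 was 13.5, a ratio of 17.9 against 4.17 at most in the other 13 libraries. Cel, Pnliprp2 and the phospholipase Pla2g1b peaked at 2140.2, 266 and 299.8 FPKM, each in NPF 3.

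Amy2b, the most abundant of the 3 starch-cutting amylases here, stood at 5.48, 51.0 and 376 FPKM in NPF 1 to 3, and at 0.0227, 1.68, 2.09, 2.86 and 6.25 in WT_CAF 1 to 5. It was 0, 0.0314 and 1.65 FPKM in KO_CAF 1 to 3, 89.3, 31.6, 20.0 and 0 in WT_tumor 1 to 4, and 0, 92.1 and 130.3 in KO_tumor 1 to 3. Amy1, named for the salivary gland and also expressed in liver, was 11.1 FPKM in WT_CAF 4 and 10.95 in KO_tumor 2, where Amy2b was 2.86 and 92.1. Rnase1, the pancreatic ribonuclease, stood at 35.6, 252 and 1412 FPKM in NPF 1 to 3, at 0.611, 3.81, 12.4, 36.5 and 41.6 in WT_CAF 1 to 5, and at 0.1003, 0.493 and 7.40 in KO_CAF 1 to 3. It was 1160.2, 232, 98.5 and 0.465 FPKM in WT_tumor 1 to 4 and 0.0420, 745 and 828 in KO_tumor 1 to 3. For both Amy2b and Rnase1, NPF 1 overlapped the higher WT_CAF libraries and the tumor groups spanned both ends.

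The granule proteins were high and low in much the same libraries. Sycn, a protein bound to the inside of the granule membrane, stood at 30.4, 205 and 1612 FPKM in NPF 1 to 3, at 0.520, 7.33, 10.4, 46.8 and 26.7 in WT_CAF 1 to 5, at 0, 0.537 and 7.66 in KO_CAF 1 to 3, at 244, 195, 35.3 and 0.189 in WT_tumor 1 to 4, and at 0, 481 and 921 in KO_tumor 1 to 3. The highest levels of the others were 1168 FPKM for the lectin Zg16, 660.5 for the kallikrein Klk1 and 265 for the trypsin inhibitor Spink3, all in NPF 3. Gp2, the main glycoprotein of the granule membrane, was higher in WT_tumor 1 (441 FPKM) and KO_tumor 2 (388) than in NPF 3 (299), and Cuzd1 reached 58.6 FPKM in NPF 3 and 49.97 in WT_tumor 1.

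The acinar transcription factors Bhlha15 (Mist1), which sets up the secretory machinery, and Rbpjl, the subunit of the PTF1 complex that drives enzyme genes, were low throughout. Bhlha15 stood at 0.168, 0.717 and 3.59 FPKM in NPF 1 to 3, between 0.0376 and 0.120 in WT_CAF, at 0.136, 0 and 0 in KO_CAF 1 to 3, at 2.49, 0.422, 0.468 and 0.191 in WT_tumor 1 to 4 and at 0.136, 1.35 and 2.16 in KO_tumor 1 to 3. Rbpjl stood at 0.135, 0.757 and 4.97 FPKM in NPF 1 to 3, between 0 and 0.343 in WT_CAF, at 0.390, 0.189 and 0 in KO_CAF 1 to 3, at 4.50, 0.217, 1.21 and 0.0546 in WT_tumor 1 to 4 and at 0.0766, 0.992 and 3.66 in KO_tumor 1 to 3. Both reached 1 FPKM in 4 libraries, which for both included NPF 3, WT_tumor 1 and KO_tumor 3, libraries rich in enzyme RNA. Ptf1a, the other cell-specific PTF1 subunit, not among the 38 and named after its values were seen, was highest in the same libraries, at 5.65 FPKM in WT_tumor 1, 3.97 in NPF 3 and 3.23 in KO_tumor 3. Nr5a2, another acinar transcription factor outside the 38, was not: it was 2.43 FPKM in WT_tumor 2, 0.0670 in WT_tumor 1 and 0.834 or less in all other libraries.

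To put one number on each library, its enzyme level was taken as the median log2(FPKM + 1) of the 24 digestive enzymes. It was 5.35, 7.98 and 10.83 in NPF 1 to 3, 0.63, 2.17, 3.12, 5.22 and 4.55 in WT_CAF 1 to 5, 0.10, 0.58 and 3.22 in KO_CAF 1 to 3, 8.35, 7.80, 4.81 and 0.65 in WT_tumor 1 to 4, and 0.17, 9.33 and 10.10 in KO_tumor 1 to 3. Each enzyme was then set beside the median of the others. The Pearson correlation had a median of 0.966 over 23 enzymes in the 11 fibroblast libraries (0.389 to 0.996) and 0.958 over 23 enzymes in the 7 tumor cell libraries (0.451 to 0.995). Amy2a5 was the lowest in fibroblasts and Prss1 in tumor cells, both at or near 0 in most libraries. The granule proteins, which took no part in that level, correlated with it at 0.942 (Cuzd1) to 0.994 (Sycn) in fibroblasts and 0.941 (Spink3) to 0.998 (Sycn) in tumor cells. Their Spearman correlations were 0.891 to 0.973 in fibroblasts and 0.679 (Spink3) to 1 (Sycn and Klk1) in tumor cells. Without KO_tumor 1 and WT_tumor 4, the tumor libraries farthest from the median, Spink3 dropped to 0.586 (Spearman 0.2), Zg16 to 0.879 (Spearman 0.4), Gp2 to 0.873 and Cuzd1 to 0.845, whereas Sycn and Klk1 stayed at 0.996 and 0.994. These correlations are descriptions without a p-value, because the points share a library, its scaling and its depth.

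The order of the enzymes within a library was kept less strictly. Spearman correlations over the enzymes with NPF 3 were 0.984 and 0.993 for NPF 1 and 2, between 0.850 and 0.925 for WT_CAF, and 0.953 for KO_tumor 3. They were 0.832, 0.912 and 0.790 for WT_tumor 1 to 3 and 0.775 for KO_tumor 2. The 5 other libraries were 0.829 (KO_CAF 3), 0.731 (KO_CAF 2), 0.680 (KO_CAF 1), 0.641 (KO_tumor 1) and 0.616 (WT_tumor 4), and in the last 4 of these, as in WT_CAF 1, most enzymes stood below 1 FPKM. Enzymes are not independent replicates, and near copies among them share fragments, so these values describe the libraries only.

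A fixed mixture would hold each gene at one ratio to another, so every gene was divided by Cpa1 in the 14 libraries with 1 FPKM or more of it. Cpa1 was picked as divisor after its values were seen. Leaving aside the trypsinogens, Amy1, and Amy2a5 and Pla2g1b, which were listed at 0 in some of these libraries, the 14 other enzymes had a median SD of the log2 ratio of 0.72 (0.39 for Cela3b to 1.76 for Ctrc), and the median enzyme differed 5.34-fold between its highest and lowest ratio. Over all 18 enzymes above 0 in these libraries the median SD was 0.86 and the widest were Amy1 (2.68, 846-fold) and Try4 (2.27), wider than some Reg genes. The 6 granule proteins were alike, with a median SD of 0.84 and a median fold of 5.64. Over the same libraries the 5 Reg genes above 0 in all of them had a median SD of 2.56 (1.43 for Reg1 to 3.29 for Reg3b), and the median Reg gene differed 1643-fold. Much of that width came from NPF 1: without it the median Reg gene had an SD of 1.64 and differed 57.2-fold, Reg3b differed 568.4-fold, and the 14 enzymes kept a median SD of 0.75 and a median of 5.34-fold. Reg3g, listed at 0 in NPF 1, had an SD of 2.95 over the 13 others. Cpa1 itself ran from 1.11 to 2951 FPKM in these libraries. The difference in spread between enzymes and Reg genes was not tested.

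**Figure D2:**
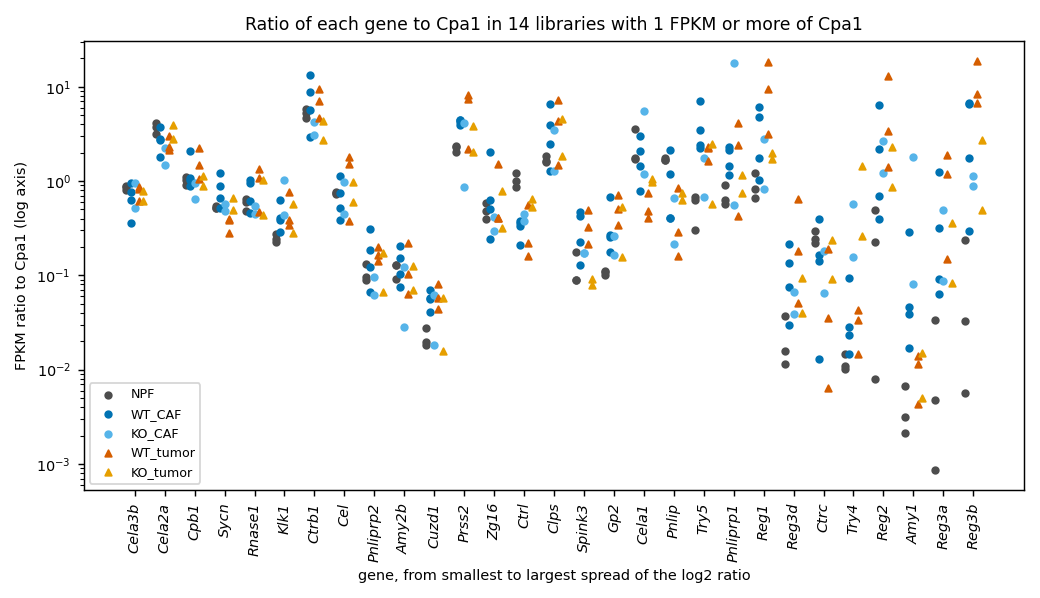
Ratio to Cpa1 of each gene above 0 in all 14 libraries with at least 1 FPKM of Cpa1 (log axis, 1 point per library, coloured by group). Cela3b and Sycn stay within 2.64-fold and 4.40-fold, whereas Reg3b spans 3275-fold (568.4-fold without NPF 1), lowest in the NPF libraries and highest in WT_tumor 1 to 3.

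Some of these genes also shifted against Cpa1 between groups, in both directions. Ctrl, another chymotrypsin-like protease, stood at 0.874 to 1.22 times Cpa1 in NPF and between 0.162 and 0.652 in every other group, without overlap. Pnlip stood at 1.67 to 1.76 times Cpa1 in NPF, at 0.406 to 2.14 in WT_CAF 2 to 5, at 0.216 and 0.665 in KO_CAF 2 and 3, at 0.161 to 0.847 in WT_tumor 1 to 3 and at 0.738 and 0.624 in KO_tumor 2 and 3, so NPF overlapped WT_CAF. Cela1 was lowest in WT_tumor 1 to 3, at 0.402 to 0.751 times Cpa1, and highest in KO_CAF 2, at 5.52. Other members were low in NPF, as several Reg genes below were. Gp2 stood at 0.101 to 0.112 times Cpa1 in NPF and at 0.156 or more in each library of the other groups. Try5 stood at 0.304 to 0.678 in NPF against 2.26 to 7.05 in WT_CAF 2 to 5, but KO_CAF 2 (0.676) and KO_tumor 3 (0.566) lay within its NPF range. A low ratio in NPF was thus not particular to the Reg genes. None of these shifts was tested.

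The Reg genes differ from one another far more than the trypsinogens do: their coding sequences are identical at 55.02% (Reg2 and Reg3g) to 78.7% (Reg1 and Reg2) of positions. The promoters of 4 of the 6 Reg genes are shown beside that of Cpa1 because they make visible which sequence words the enzymes and the Reg genes have in common. Each is the 250 bases before the start site in RefSeq (GRCm38.p6), printed 5′ to 3′ on the strand of the gene. Capitals mark, on either strand, CACCTG and TTTCCC (words of the site bound by the PTF1 complex in enzyme promoters), TTCNNNGAA (the STAT word) and TATAAA (the TATA word, added after the windows had been read). The windows are Cpa1 at chr6:30638968-30639217 (+), Reg1 at chr6:78425733-78425982 (+), Reg2 at chr6:78404905-78405154 (+), Reg3b at chr6:78370635-78370884 (+) and Reg3g at chr6:78468875-78469124 (−).
Cpa1: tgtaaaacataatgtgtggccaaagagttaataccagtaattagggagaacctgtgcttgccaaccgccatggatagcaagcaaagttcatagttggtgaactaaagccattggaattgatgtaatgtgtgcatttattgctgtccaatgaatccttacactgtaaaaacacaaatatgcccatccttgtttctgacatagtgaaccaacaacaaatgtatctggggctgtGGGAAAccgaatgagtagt
Reg1: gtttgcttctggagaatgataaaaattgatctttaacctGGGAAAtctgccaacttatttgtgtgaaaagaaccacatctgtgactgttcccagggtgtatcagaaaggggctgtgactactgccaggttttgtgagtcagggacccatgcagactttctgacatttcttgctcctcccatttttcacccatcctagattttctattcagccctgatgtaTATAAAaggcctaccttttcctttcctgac
Reg2: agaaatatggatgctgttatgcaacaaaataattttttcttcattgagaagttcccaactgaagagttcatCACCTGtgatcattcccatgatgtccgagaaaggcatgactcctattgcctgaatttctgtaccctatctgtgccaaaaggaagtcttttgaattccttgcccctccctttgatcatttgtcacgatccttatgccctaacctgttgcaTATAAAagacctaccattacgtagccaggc
Reg3b: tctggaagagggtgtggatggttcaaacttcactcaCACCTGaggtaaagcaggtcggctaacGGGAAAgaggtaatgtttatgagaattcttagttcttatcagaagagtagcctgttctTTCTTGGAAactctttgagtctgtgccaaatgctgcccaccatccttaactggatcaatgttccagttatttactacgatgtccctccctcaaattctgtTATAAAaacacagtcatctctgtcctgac
Reg3g: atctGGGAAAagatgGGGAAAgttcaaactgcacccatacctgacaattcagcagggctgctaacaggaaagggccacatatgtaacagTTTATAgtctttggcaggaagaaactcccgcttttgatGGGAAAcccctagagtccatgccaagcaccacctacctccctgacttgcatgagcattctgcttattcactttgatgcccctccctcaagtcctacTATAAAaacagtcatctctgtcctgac
The 4 Reg windows all hold the TATA word near their right end, and Reg3b is the one of them with the STAT word. Reg3b and Reg3g share a run of 20 bases, the longest between any 2 Reg windows. Windows were found for 32 of the 38 genes, both strands were searched and matches of different words may overlap. CACCTG or its reverse complement was in 19 of 32, against 17.2% of all 32851 promoters of the same length, and TTTCCC was in 11 of 32, against 22.0%. Among the enzymes, 12 of 20 windows held CACCTG and 7 of 20 held TTTCCC. Among the Reg genes, 4 of 6 held each. TTCNNNGAA was in 4 of 32 windows, against 7.02% of all promoters: those of Prss2, Rnase1, Reg3b and Reg3d. TATAAA was in 14 of 32, against 12.4%, and in 4 of 6 Reg windows, not in those of Reg3a and Reg3d. A match describes the letters of a window and is neither a site nor a cause.

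Reg1, the most abundant of the family in NPF, stood at 39.5, 481 and 2425 FPKM in NPF 1 to 3, at 1.203, 14.5, 124, 38.8 and 193 in WT_CAF 1 to 5, and at 1.47, 0.913 and 37.8 in KO_CAF 1 to 3. The tumor cells had 8145, 1561, 1661 and 5.10 FPKM in WT_tumor 1 to 4, and KO_tumor 1 to 3 had 227, 1443 and 3190.4. WT_tumor 1 was higher than every NPF library and KO_tumor 1 was well above the low libraries of other groups, so Reg1 did not keep the order of the enzymes. Against Cpa1, Reg1 was 0.664 to 1.22 in NPF, 1.02 to 6.13 in WT_CAF 2 to 5, 3.14 to 18.3 in WT_tumor 1 to 3 and 1.70 and 1.96 in KO_tumor 2 and 3.

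Reg2 stood at 0.473, 196 and 674 FPKM in NPF 1 to 3, at 1.25, 5.66, 128, 15.1 and 88.3 in WT_CAF 1 to 5, and at 0.600, 2.94 and 16.6 in KO_CAF 1 to 3. Levels were 2989, 704, 1186 and 1.94 FPKM in WT_tumor 1 to 4, and KO_tumor 1 to 3 had 0.431, 1686 and 1614. In NPF 1, where Cpa1 was 59.5 FPKM, Reg2 was at 0.00795 of the level of Cpa1, lower than in any other library with a ratio. The other groups overlapped each other.

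Reg3b, an antibacterial lectin, stood at 0.339, 94.6 and 96.9 FPKM in NPF 1 to 3, at 0.469, 14.3, 132, 11.3 and 274 in WT_CAF 1 to 5, and at 1.38, 0.974 and 15.3 in KO_CAF 1 to 3. In WT_tumor 1 to 4 it was 5884, 4137, 1694 and 2.36 FPKM, and in KO_tumor 1 to 3 it was 107.5, 1977 and 929. NPF 3, the library with the most enzyme RNA of all, had less Reg3b than WT_CAF 3 and WT_CAF 5, and all tumor cell libraries but WT_tumor 4 lay above every NPF library. Against Cpa1 it was 0.00570 to 0.239 in NPF, 0.297 to 6.75 in WT_CAF 2 to 5, 0.878 and 1.13 in KO_CAF 2 and 3, 6.75 to 18.7 in WT_tumor 1 to 3, and 2.69 and 0.496 in KO_tumor 2 and 3.

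Reg3g, its closest relative in sequence at 75.95% identity, stood at 0, 3.33 and 2.17 FPKM in NPF 1 to 3, at 0.103, 0.414, 5.08, 1.33 and 8.34 in WT_CAF 1 to 5, and at 0.132, 0.251 and 2.05 in KO_CAF 1 to 3. In WT_tumor 1 to 4 it was 802, 279, 152 and 0.0807 FPKM, and in KO_tumor 1 to 3 it was 24.9, 147 and 154. The 6 tumor cell libraries other than WT_tumor 4 were all above all 11 fibroblast libraries. NPF 3 had 2.17 FPKM beside 2951 of Cpa1, and KO_tumor 1 had 24.9 beside 0.0770 of Cpa1.

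Reg3a and Reg3d complete the family. Reg3a stood at 0.0518, 13.2 and 13.97 FPKM in NPF 1 to 3, at 0.0845, 0.757, 25.4, 2.38 and 13.05 in WT_CAF 1 to 5, at 0, 0.546 and 1.19 in KO_CAF 1 to 3, at 1038, 73.7, 169.9 and 0.136 in WT_tumor 1 to 4, and at 0.237, 261 and 154 in KO_tumor 1 to 3. Reg3d stood at 0.685, 14.7 and 46.9 FPKM in NPF 1 to 3, at 0.0624, 1.12, 4.36, 1.13 and 3.06 in WT_CAF 1 to 5, at 0, 0.0731 and 0.525 in KO_CAF 1 to 3, at 159, 25.3, 58.6 and 0.141 in WT_tumor 1 to 4, and at 0.0509, 68.4 and 75.4 in KO_tumor 1 to 3. Reg3d kept nearer to the enzymes than the other Reg3 genes, with an SD of its log2 ratio to Cpa1 of 1.55 against 3.09 for Reg3a.

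KO_tumor 1 was the library in which enzymes and Reg genes parted most. Its 6 Reg genes summed to 360 FPKM and its 24 enzymes to 14.4, so the Reg genes held 95.8% of the FPKM of the 38 genes and stood at 25.0 times the enzymes. In the 17 other libraries that ratio was between 0.0262 (NPF 1) and 1.47 (WT_tumor 3). Reg1, Reg3b and Reg3g made up this signal, at 227, 107.5 and 24.9 FPKM, while Reg2, Reg3a and Reg3d were at 0.431 FPKM or less. By group the ratio of summed Reg to summed enzyme FPKM lay between 0.0262 and 0.0853 in NPF and between 0.0609 and 0.756 in WT_CAF. It lay between 0.135 and 0.254 in KO_CAF and between 0.360 and 1.47 in WT_tumor (0.609 and 1.47 without WT_tumor 4). In KO_tumor 2 and 3 it was 0.272 and 0.175, below every WT_tumor library and within the range of WT_CAF. NPF and WT_tumor did not overlap. Where the enzymes were low, Cela1 made up much of their sum. Its share was 81.4% in KO_CAF 1, 27.2% in KO_CAF 2, 41.0% in KO_tumor 1, 38.3% in WT_CAF 1 and 20.2% in WT_tumor 4. The enzymes of KO_CAF 1 and 2 summed to only 14.1 and 22.5 FPKM, so their ratios rest on low levels.

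**Figure D3:**
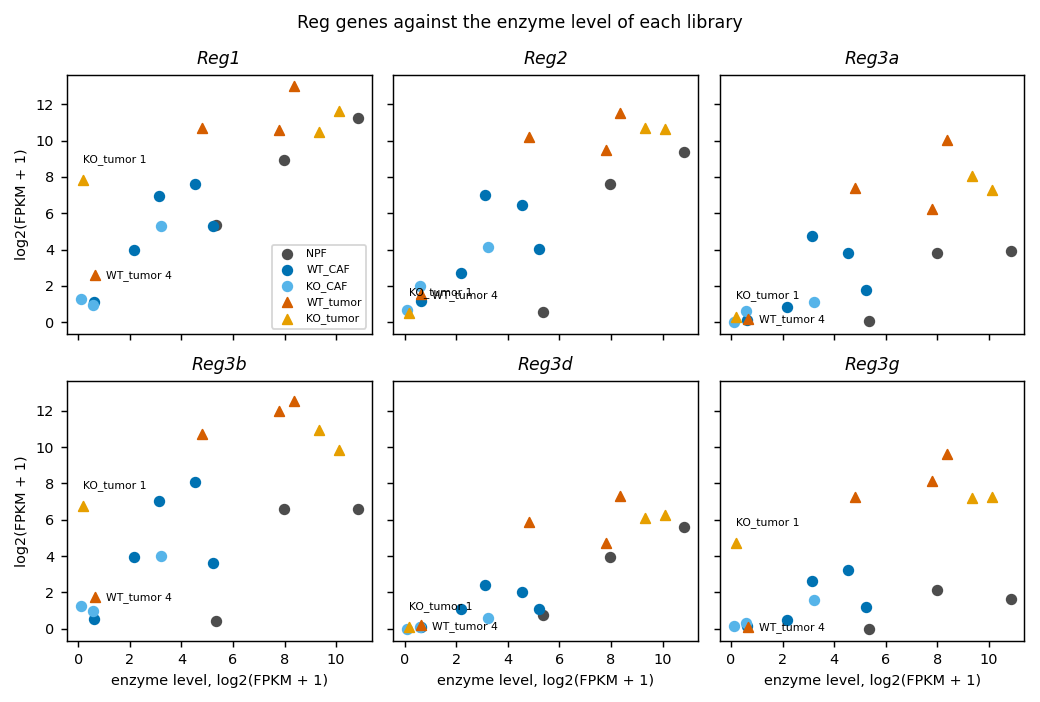
Level of each Reg gene (vertical axis, log2(FPKM + 1)) against the enzyme level of the library (horizontal axis, median log2(FPKM + 1) of 24 enzymes), 1 point per library coloured by group. Tumor cell libraries lie above fibroblast libraries of like enzyme level for Reg3b and Reg3g, WT_tumor 4 excepted for Reg3g, and KO_tumor 1 lies far above the origin for Reg1, Reg3b and Reg3g.

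Within the 11 fibroblast libraries, the Pearson correlation of a Reg gene with the enzyme level was 0.928 for Reg1 (Spearman 0.873), 0.895 for Reg3d (0.800), 0.762 for Reg2 (0.582), 0.628 for Reg3a (0.573), 0.586 for Reg3b (0.373) and 0.457 for Reg3g (0.409). Within the 7 tumor cell libraries it was 0.924 for Reg2 (Spearman 0.821), 0.908 for Reg3d (0.857), 0.888 for Reg3a (0.643), 0.801 for Reg1 (0.643), 0.792 for Reg3b (0.5) and 0.779 for Reg3g (0.571). Without the 2 libraries farthest from the median enzyme level, KO_tumor 1 and WT_tumor 4, 5 tumor libraries were left. They gave 0.340 for Reg2 (Spearman 0.5), 0.269 for Reg1 (0.1), 0.227 for Reg3d (0.6), 0.133 for Reg3a (0.1), 0.0473 for Reg3g (−0.1) and −0.155 for Reg3b (−0.3). The Pearson values in tumor cells thus rest on those 2 libraries, whereas Reg3d and Reg2 kept Spearman values of 0.6 and 0.5 over 5 libraries. Without NPF 3 and NPF 2, the 9 fibroblast libraries left gave 0.844 for Reg1, 0.594 for Reg3d and 0.408 to 0.449 for the other 4. Without WT_CAF 1 the fibroblast values were 0.919 for Reg1, 0.885 for Reg3d, 0.732 for Reg2, 0.583 for Reg3a, 0.524 for Reg3b and 0.389 for Reg3g. No index form of the library labels held 6 libraries of one cell type, the least set for a correlation within a form, and none was computed. They are descriptions with no p-value.

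Each comparison of groups was tested in 1 linear model over all 13369 genes that passed the filter on low values, with the index form of the library label as a term, and read off for the 36 members that passed. A gene was called when its adjusted p was under 0.05 (limma, Benjamini-Hochberg over all genes). Differences are on the log2(FPKM + 1) scale, given ± standard error, and they understate the change of low genes.

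For tumor fibroblasts against normal ones (WT_CAF against NPF), 0 of 36 members were called, where 0.95% of all genes were. The estimate was below 0 in 36 of 36, with a median difference of −5.22 against −0.01 over all genes. An unadjusted p under 0.05 was found for 23 of 36 members and for 2254 of all 13369 genes. Among the 23 members were 18 of 22 enzymes and 1 of 6 Reg genes. The smallest adjusted p was that of Ctrl, at a difference of −7.46 ± 2.26 (limma, adjusted p = 0.134). Cpa1 differed by −6.65 ± 2.66 (adjusted p = 0.232) and Reg1 by −5.95 ± 2.31 (adjusted p = 0.222), whereas Reg3b differed by −2.29 ± 2.68 (adjusted p = 0.704) and Reg3g by −0.94 ± 1.82 (adjusted p = 0.842). Because NPF libraries share their index form with WT_CAF 1 and 2 alone, these sizes rest on 5 libraries. Without the library labelled WT_CAF 1 the WT_CAF arm rests on WT_CAF 2 alone, assumed to vary as the other groups do, and the median was −4.41 with 0 called. With the index term also left out, so that WT_CAF 2 to 5 entered, it was −3.26 with 0 called.

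For knockout against intact tumor fibroblasts (KO_CAF against WT_CAF), 0 of 36 members were called, where 0.00748% of all genes were. An unadjusted p under 0.05 was found for 0 of 36 members and for 125 of all 13369 genes. The members had a median difference of −1.70 against −0.01 over all genes, and 32 of 36 were below 0. Cpa1 differed by −2.25 ± 2.45, Reg1 by −3.31 ± 2.13 and Reg3b by −3.43 ± 2.47, each with an adjusted p of 1 in limma. Over all WT_CAF libraries the levels overlapped: Cpa1 ran over 0.822 to 40.7 FPKM in WT_CAF and over 0.148 to 13.5 in KO_CAF. With the index term, however, the WT_CAF arm rests on WT_CAF 3 to 5, as WT_CAF 1 and 2 share their index form with NPF alone. In WT_CAF 3 to 5 Cpa1 ran over 20.2 to 40.7 FPKM, whereas Reg3b still overlapped, at 11.3 in WT_CAF 4 and 15.3 in KO_CAF 3. Leaving out WT_CAF 3 moved the median to −0.875. Leaving out WT_CAF 1 could not move the median of −1.70 while the index term was kept. Without WT_CAF 1 and without the term the median was −2.19, and 0 were called in both fits.

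For knockout against intact tumor cells (KO_tumor against WT_tumor), 0 of 36 members were called, where 0% of all genes were. An unadjusted p under 0.05 was found for 0 of 36 members and for 528 of all 13369 genes. The median was 0.03 against −0.02 over all genes, with 19 members above 0 and 17 below. Cpa1 differed by 0.11 ± 2.23, Reg1 by 0.56 ± 1.94 and Reg3b by −0.25 ± 2.25, each with an adjusted p of 1 in limma. The largest difference was that of Try4, at 3.23 ± 1.64 with an adjusted p of 1. These values turn on single libraries: the median was 2.45 without KO_tumor 1, −1.58 without WT_tumor 4 and 0.92 without both. In FPKM the groups overlapped: Reg3b was 1694 in WT_tumor 3 and 1977 in KO_tumor 2. Reg3g was 152 in WT_tumor 3 and 154 in KO_tumor 3. The ratio to Cpa1 also depends on Cpa1 itself, which was 90.8 FPKM in WT_tumor 3 and 1875 in KO_tumor 3. In this ratio Reg3b was 6.75 in WT_tumor 1 against 2.69 in KO_tumor 2, both with a 16-base index. It was 8.32 and 18.7 in WT_tumor 2 and 3 against 0.496 in KO_tumor 3, all with a 6-base index. Reg3g showed the same order, with 0.562 to 1.67 in WT_tumor 1 to 3 and 0.0822 and 0.200 in KO_tumor 2 and 3. KO_tumor 1 and WT_tumor 4 have no ratio here, as their Cpa1 was below 1 FPKM, and they ran the other way: KO_tumor 1 had 107.5 FPKM of Reg3b and 24.9 of Reg3g beside 0.0770 of Cpa1, whereas WT_tumor 4 had 2.36 and 0.0807 beside 0.512. The order of the other 5 libraries was not tested.

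For intact tumor cells against intact tumor fibroblasts (WT_tumor against WT_CAF), 0 of 36 members were called, where 21.5% of all genes were. The estimate was above 0 in 36 of 36, with a median difference of 2.79 against 0.07 over all genes. Of the members, 1 of 36 had an unadjusted p under 0.05, against 4794 of all 13369 genes. That member was Reg3g, at 4.67 ± 1.61 (limma, adjusted p = 0.052). The other Reg genes differed by 3.38 ± 1.67 (Reg3d) to 3.93 ± 2.36 (Reg3b), with adjusted p of 0.160 to 0.380, and Cpa1 by 2.77 ± 2.35 (adjusted p = 0.414). WT_CAF 1 and 2 share their index form with NPF alone. With the index term, the WT_CAF arm here thus rests on WT_CAF 3 to 5. Leaving out WT_CAF 1 could therefore not move the sizes, and 0 were called (Reg3g, limma, adjusted p = 0.0535). In the fit with all libraries 10 of 12 ductal and epithelial genes were called higher and 9 of 12 fibroblast genes lower in WT_tumor.

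WT_tumor 4, the library with little Epcam, was also the lowest WT_tumor library for each of the 6 Reg genes and for Pnliprp2. Leaving out the lowest library of the higher group raises such differences by itself, so calls made without it are not independent of that choice. With WT_tumor 4 left out, the count of 0 in this comparison did not hold. In that fit 5 of 36 members were called, all higher in WT_tumor, where 20.7% of all genes were called in either direction. They were 4 of the 6 Reg genes and 1 of the 22 enzymes. Reg3g differed by 6.34 ± 0.76 (limma, adjusted p = 2.7e-04), Reg1 by 5.37 ± 1.48 (adjusted p = 0.0215), Reg3b by 5.96 ± 1.71 (adjusted p = 0.0266) and Reg3d by 4.52 ± 1.45 (adjusted p = 0.0421). The enzyme was Pnliprp2, a lipase of broad specificity, at 3.99 ± 1.32 (adjusted p = 0.0486). Pnliprp2 stood at 123, 99.5, 14.9 and 0.272 FPKM in WT_tumor 1 to 4 and at 0.0558, 1.53, 1.34, 4.605 and 12.6 in WT_CAF 1 to 5. Reg3a differed by 4.98 (adjusted p = 0.0523), Reg2 by 5.23 (adjusted p = 0.157) and Cpa1 by 4.24 ± 2.13 (adjusted p = 0.173). Of the 6 granule proteins and 2 transcription factors 0 were called. The median difference was 5.30 for the Reg genes and 3.93 for the enzymes, and whether these medians differ was not tested.

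**Figure D4:**
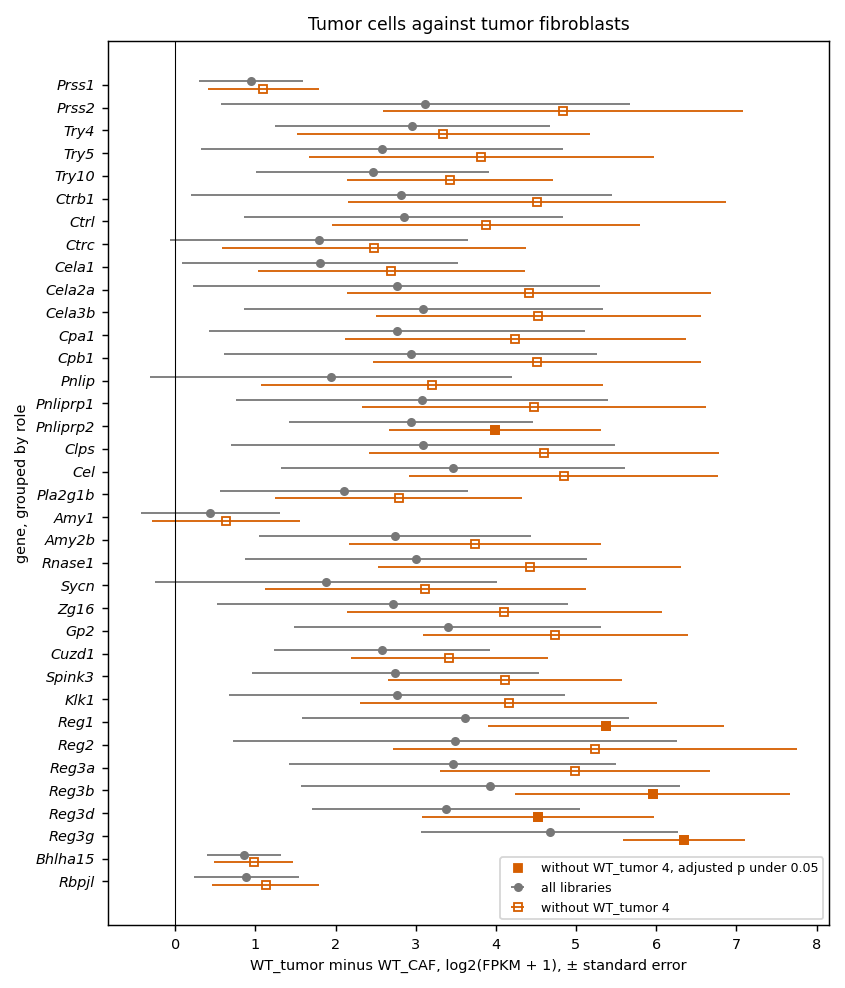
Difference between WT_tumor and WT_CAF for the 36 members tested, on the log2(FPKM + 1) scale with standard errors, with all libraries and without WT_tumor 4. WT_tumor 4 was the lowest WT_tumor library for each Reg gene. Leaving it out moves the Reg genes from a median of 3.56 to 5.30 and narrows the error of Reg3g from 1.61 to 0.76.

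Markers of other cells were read in the same libraries. One list, written by hand, held STAT3-responsive genes together with Stat3 and the receptors Il6ra and Osmr. Its mean log2(FPKM + 1) was 3.77 to 4.87 in NPF, 3.36 to 7.13 in WT_CAF and 3.52 to 5.32 in WT_tumor. In WT_tumor against WT_CAF 0 of its 10 genes were called higher and 2 of 10 lower, with a median difference of −1.30. Of all genes, 9.05% were called higher and 12.5% lower. The lower genes of the list were Osmr, a cytokine receptor, at −3.37, and Stat3 itself, at −1.27. The activity of STAT3 was not tested. Of the acinar genes outside the 38, 1 of 13 tested was called in that comparison: Gata4, a transcription factor of acinar and other foregut cells, was 1.81 ± 0.46 higher in WT_tumor (limma, adjusted p = 0.0136). Gata4 stood between 3.49 and 17.2 FPKM in WT_tumor, WT_tumor 4 included at 7.98, and between 0.312 and 2.52 in WT_CAF. 2210010C04Rik, a trypsinogen-like gene and the most abundant of that list, stood at 37.8, 274 and 1526 FPKM in NPF 1 to 3, 47.7, 315, 24.5 and 0.0434 in WT_tumor 1 to 4 and 0.0954, 153 and 848 in KO_tumor 1 to 3, low in WT_tumor 4 and KO_tumor 1 as the enzymes were. The part that other cells or their RNA took in the levels of the 38 genes was not tested.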

How the data were processed

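Per the labels' protocols, a Truseq RNA kit and a HiSeq2000 were used. Levels come from 1 table in which the authors gave FPKM per gene and library. The submitters' processing notes name Cufflinks 2.2.1 and Cuffnorm, TopHat2 2.0.10, Bowtie 1.0.0 and SAMtools 0.1.19, and of the builds listed mm9 is the mouse genome. Settings, annotation and the strand of counting are given in no source used here. Such FPKM are model estimates, near copies can be split wrongly, and a listed 0 can be a failed estimate. Among the 38 genes, 4 zeros (Amy2b, Ctrc, Sycn and Try4 in KO_tumor 1) stood beside 2 libraries of the group at 50 FPKM or more. The libraries are biological replicates per the series' design text.

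Differences were computed with limma 3.58.1 in R 4.3.3 (trend, empirical Bayes, two-sided) on log2(FPKM + 1), for the 13369 genes that reached 1 FPKM in no fewer than 3 of the 18 libraries. The model held the group and, additively, the form of the index in the labels (none in 5 libraries, 6 bases in 8, 16 bases in 5), leaving 11 residual degrees of freedom. Calls needed a Benjamini-Hochberg adjusted p under 0.05 over all genes. Scripts were tested on simulated data. Ratios, correlations and marker lists are descriptions. Markers of other cells, with Epcam, Pdgfra, Krt19 and Cdh1 singled out after their values were seen, were read in the same libraries. Coding identities come from GENCODE M21 transcripts, by the longest reading frame.

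The members, lists and tests were chosen with earlier results of these data known. Values in every library are given for the member of each role with the highest mean in NPF, all Reg genes, both transcription factors and members past the threshold, the others by range. Other members and values singled out in the text were chosen after their values were seen. Alternatives were another pseudocount (0.1), no filter, no index term, quantile normalization, the compared groups alone, zeros set to missing, and each library left out. Correlations without WT_CAF 1 and ratios without NPF 1 were added after seeing the data.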

Additional observations from a re-analysis of the deposited data

Results flagged for a closer look

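Among 32 sets of libraries (15 members and the enzyme level, in the groups of 4 and 5 libraries), 3 held a value far from the rest of its group. The limit used is Dixon's 95% critical value, so chance sets about 1 in 20 independent groups apart, and these sets share libraries and are not independent. Bhlha15 was 0.120 FPKM in WT_CAF 5, above the 4 other WT_CAF libraries, all of which were at 0.0589 FPKM or less, so every value is near 0. Ctrb1 was 5.89 FPKM in WT_CAF 1, below the 109 to 228 FPKM of the other WT_CAF libraries, and that library is the one with low Pdgfra. Reg3b was 2.36 FPKM in WT_tumor 4, below the 1694 to 5884 of the other WT_tumor libraries, and that library is the one with low Epcam. Whether the makeup of these libraries bears on the values was not tested.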

How the results depend on the processing

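The count of members called remained 0 under all 15 alternatives for WT_CAF against NPF, all 15 for KO_CAF against WT_CAF and all 16 for KO_tumor against WT_tumor. For WT_tumor against WT_CAF it was 0 under 12 of 17 alternatives. It was 1 (Reg3g) with no index term, 1 (Reg3g) with quantile normalization and 1 (Reg3g) without WT_CAF 1 and the index term, and 0 to 5 over the fits without each replicate, with 5 without WT_tumor 4. Without WT_tumor 4 and the index term, a setting added after seeing the data, it was 9, adding Reg3a, Cuzd1, Gp2 and Spink3. The smallest adjusted p over alternatives ran from 0.0936 to 0.330, from 0.9999 to 1, from 0.157 to 1 and from 6.6e-05 to 0.248 in the order above, and the median difference from −6.60 to −3.26, −2.93 to −0.875, −1.95 to 2.94 and 1.98 to 4.52. The causes were not tested. Of 939 values of 15 named members under alternatives, 927 kept their call, 12 were newly called (all in WT_tumor against WT_CAF), and 77 that were never called changed sign, 63 of them in KO_tumor against WT_tumor. The tumor cell correlation of Reg3b with the enzyme level turned to −0.155 without KO_tumor 1 and WT_tumor 4.

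No paired analysis was possible because the labels give no replicate numbers that link libraries of different groups. Depth in fragments is unknown, so levels near 0 carry no counting interval. For KO_tumor against WT_tumor the median difference changed sign with single libraries left out, so it has no stable direction.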

Other observations

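Endocrine genes, from the other gland of the pancreas, did not take the order of the enzymes. Their mean log2(FPKM + 1) was highest in KO_tumor 2 (2.27), WT_tumor 2 (2.03) and NPF 2 (1.10), and it was 0.01 in NPF 3, the library with the most enzyme RNA. Ins2, which encodes insulin and is the gene singled out here after its values were seen, stood at 132, 33.7 and 30.5 FPKM in KO_tumor 2, WT_tumor 2 and NPF 2 and was listed at 0 in NPF 3. Macrophage genes ran from 1.07 to 3.70 over all libraries.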
